A study of Mus musculus with 44 samples.

Results

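The T cell receptor repertoires of 29 subcutaneous B16 tumours, 15 of anti-PD-1-treated mice and 14 of control mice, were compared out of the 44 tumours of the series. The tumours were chosen by their treatment label, and all CDR3s of both receptor chains were used. The sample labels call the control group Vehicle, whereas the study's methods describe these mice as receiving no treatment. All 29 tumours grew from B16F10, a mouse melanoma line, in wild-type C57BL/6 mice (C57BL/6J in the methods), were taken on day 12 and gave 1 library each from RNA of the whole tumour tissue. The anti-PD-1 group received a blocking antibody against PD-1 (clone 29F.1A12 in the methods, given by intraperitoneal injection). The study's reporting summary also lists another anti-PD-1 clone and names 29F.1A12 for a different tumour model, so the clone given to these mice is not certain. For some B16 challenges the methods also describe a vaccine of irradiated, GM-CSF-secreting B16 cells, and they do not say whether the profiled mice received it. For tumour challenges the methods describe age-matched young adult mice, without an age for each tumour.

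A T cell receptor of the αβ type pairs an α chain (TRA) with a β chain (TRB), and the CDR3 of each chain is the loop that spans the junction of the rearranged V, (D) and J genes and mostly contacts the peptide. T cells that meet their antigen divide, so a CDR3 held by many reads usually belongs to an expanded clone, while rare CDR3s come from cells present in few copies, such as bystander T cells. PD-1 is an inhibitory receptor of activated T cells, and antibodies that block it release such cells from this brake. In the α locus, rearrangement starts with J genes close to the V genes, here called upstream, and can continue to J genes farther downstream in later rounds.

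The deposited values were read counts per amino acid CDR3 of a tumour, without its V gene or nucleotides. The chain and J gene of a CDR3 were read from its last residues, compared with those that the J genes of GRCm38 encode. Vehicle libraries held 6415 to 201469 TRB reads (median 58000.5) and anti-PD-1 libraries 62308 to 487275 (median 209955), so 6415 TRB reads and 2000 TRA reads were drawn from each tumour 100 times and averaged. At 2000 TRA reads, vehicle tumours 5 and 10 were too shallow, which left 12 vehicle tumours for TRA. Treatment also followed the index primer sets of the libraries: vehicle tumours 1 to 12 carried set 1, vehicle tumours 13 and 14 and anti-PD-1 tumours 1 to 10 carried set 2, and anti-PD-1 tumours 11 to 15 carried set 3. The TRA share of reads moved with the set, from 10.9 to 23.4% in set 1, 3.87 to 9.59% in set 2 and 26.8 to 36.0% in set 3, and library concentrations were 2.12 to 7.73 nM with vehicle and 4.92 to 10.27 nM with anti-PD-1. Outside set 2, index set and treatment cannot be told apart. No 2 of the 29 libraries held identical values. Reads carry no molecular identifiers, and in bulk tissue fewer T cells and less receptor RNA per cell cannot be told apart.

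Clone sizes were compared first, in 3 classes of CDR3s by their share of the drawn reads of a chain: expanded (at least 1%), intermediate (0.1 to under 1%) and rare (under 0.1%). Anti-PD-1 tumours held more rare CDR3s than vehicle tumours, while the numbers of expanded and intermediate CDR3s did not pass the test. Of 38 measures over both chains (19 per chain), 8 (21.1%) passed an adjusted p of 0.05 in two-sided permutation tests over tumours, and all 8 counted distinct or rare CDR3s or their reads. Some of the 8 measure nearly the same thing, since rare CDR3s make up most of the distinct ones.

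Rare TRB CDR3s numbered 697 ± 197 (SD, n = 15) per anti-PD-1 tumour, against 364 ± 281 (SD, n = 14) per vehicle tumour. The lowest, median and highest tumours were at 397, 726 and 988 with anti-PD-1 and at 51.6, 312 and 852 with vehicle. The groups overlapped, but all 15 anti-PD-1 tumours lay above the vehicle median and 3 of 14 vehicle tumours lay above the anti-PD-1 median. The difference of 333 CDR3s (95% interval 145 to 520) corresponded to a ratio of 1.91 (permutation p = 0.00135, adjusted p = 0.00855). Distinct TRB CDR3s of all classes differed by 332, and the same difference was 0.837 for expanded and -1.99 for intermediate CDR3s, so the rare class held the whole difference in number.

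Expanded TRB CDR3s, the presumed large clones, numbered 14.3 ± 3.76 (SD, n = 15) with anti-PD-1, against 13.5 ± 5.38 (SD, n = 14) with vehicle. Individual tumours ranged from 6.91 to 19.8 with anti-PD-1 and from 7.01 to 28.4 with vehicle, and the interval of the difference ran from -2.75 to 4.43 (adjusted p = 0.886 by permutation). Intermediate TRB CDR3s numbered 67.7 ± 15.4 and 69.7 ± 25.6, with an interval of -18.4 to 14.5 (adjusted p = 0.905 by permutation).

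**Figure D1:**
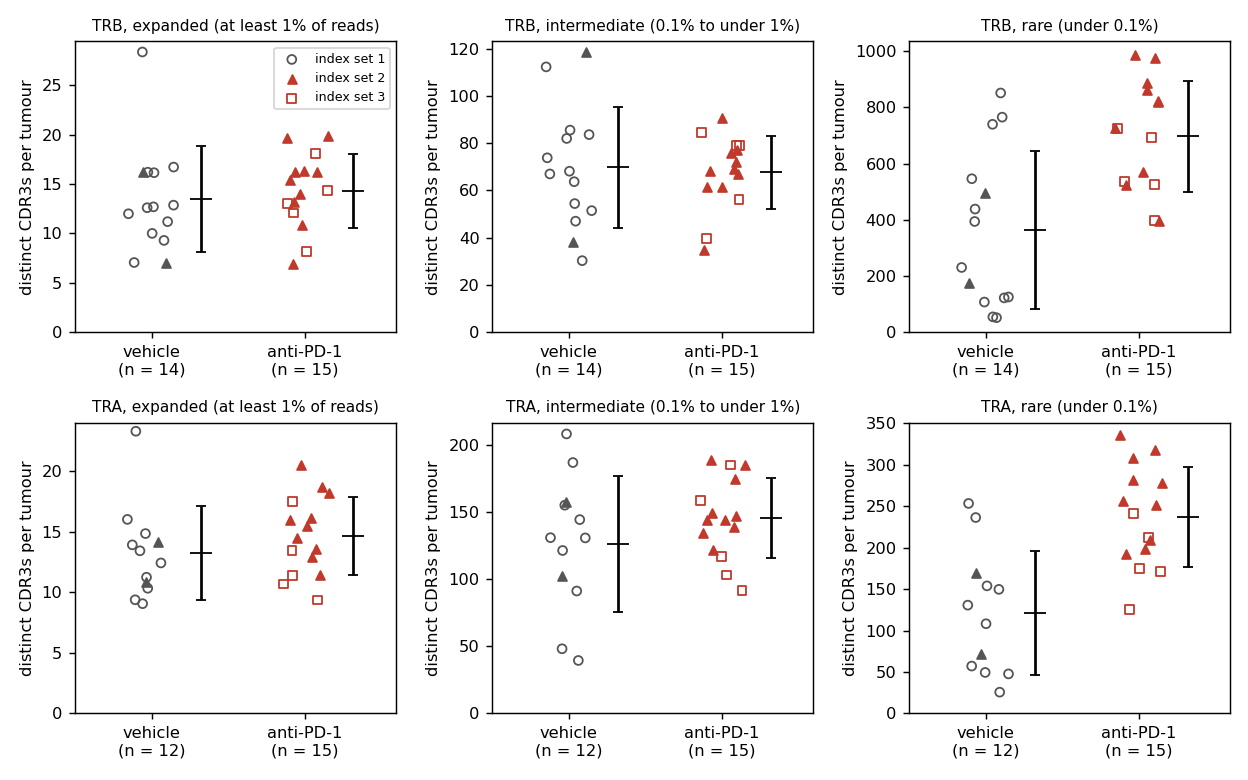
Distinct CDR3s per tumour in each size class at equal depth, for TRB (upper row) and TRA (lower row). Each point is a tumour, its shape gives the index primer set, and the bars give mean and SD. The groups overlap in every class, and in the rare class the 15 anti-PD-1 tumours start at 397 TRB and 125 TRA CDR3s and several vehicle tumours lie below.

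Reads followed the same order. Rare TRB CDR3s took 19.1 ± 4.29% (SD, n = 15) of reads with anti-PD-1, against 11.6 ± 8.06% (SD, n = 14) with vehicle, a difference of 7.45 percentage points (95% interval 2.39 to 12.5, permutation adjusted p = 0.0217). Expanded CDR3s took 62.2 ± 7.64% and 69.4 ± 11.0% of reads, a difference that did not pass (interval -14.4 to 0.198, adjusted p = 0.166 by permutation). The number of CDR3s that together hold 50% of the TRB reads was 8.72 ± 3.76 with anti-PD-1, against 5.75 ± 2.64 with vehicle (permutation p = 0.0228, adjusted p = 0.0965).

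The single largest TRB CDR3 took 17.0 ± 12.6% of reads with anti-PD-1 and 22.7 ± 8.53% with vehicle (interval of the difference -13.9 to 2.48, permutation adjusted p = 0.384). One tumour decided this value: in anti-PD-1 tumour 6 the CDR3 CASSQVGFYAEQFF, joined to Trbj2-1, held 57.7% of TRB reads, the highest share of a TRB CDR3 in the 29 tumours. Without that tumour the difference was -8.59 percentage points (adjusted p = 0.0174 by permutation). The next largest CDR3s of the anti-PD-1 group were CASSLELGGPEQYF (Trbj2-7, 28.6% in tumour 15) and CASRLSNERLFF (Trbj1-4, 20.7% in tumour 13). Among vehicle tumours the largest was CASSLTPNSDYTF (Trbj1-2) in tumour 3, with 37.5%, followed by CDR3s of 15 residues in tumours 1 and 12 with 34.4% and 31.3%. In the other tumours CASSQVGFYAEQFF reached at most 0.157% and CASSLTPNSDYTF at most 0.0835% of TRB reads, and neither was expanded a second time. The same held for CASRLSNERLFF (at most 0.0285%) and the CDR3 of vehicle tumour 1 (at most 0.0914%). By contrast, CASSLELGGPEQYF was expanded in 2 other tumours, with at most 9.82% of TRB reads. The CDR3 of vehicle tumour 12 was also expanded in 2 others, with at most 6.63%.

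**Figure D2:**
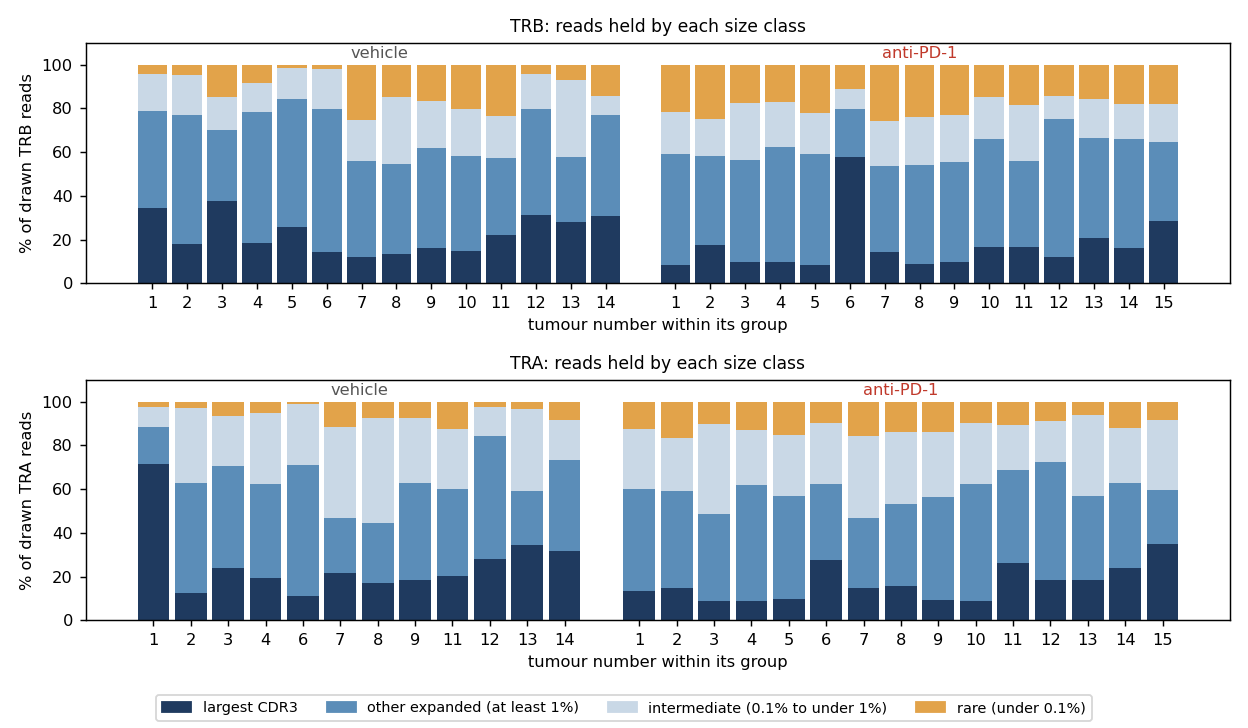
Share of the drawn reads held by the largest CDR3, the other expanded CDR3s, the intermediate and the rare CDR3s in each tumour, for TRB (upper) and TRA (lower, without vehicle tumours 5 and 10). Rare TRB CDR3s take between 11.0 and 25.7% in every anti-PD-1 tumour and between 1.505 and 25.4% in vehicle tumours.

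The α chain gave the same order. Rare TRA CDR3s numbered 237 ± 60.4 (SD, n = 15) with anti-PD-1, against 121 ± 74.7 (SD, n = 12) with vehicle, with lowest, median and highest tumours at 125, 241 and 335 and at 25.6, 119 and 253. All 15 anti-PD-1 tumours lay above the vehicle median, and the ratio was 1.96 (difference 116, 95% interval 60.5 to 171, permutation adjusted p = 0.00399). At 2000 reads a rare TRA CDR3 is one drawn read, so the rare TRA read share (11.8 against 6.05%) is the same measurement. Expanded TRA CDR3s numbered 14.6 ± 3.23 and 13.2 ± 3.85 (interval of the difference -1.48 to 4.29, permutation adjusted p = 0.5677), and intermediate ones 146 ± 29.7 and 127 ± 50.6 (adjusted p = 0.481 by permutation). The rare class held 84.8% of the difference of 137 distinct TRA CDR3s.

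The TRA result was also recomputed with both chains drawn to 1 total of 7881 reads. TRA counts then carry the TRA share of the library, which moved with the index set. In index set 2 too few TRA reads were drawn for any CDR3 to fall in the rare class. The difference in rare TRA CDR3s in this setting, -1.54, therefore cannot decide whether the TRA result depends on how depth was equalized.

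The spectrum by doubling bins of drawn reads placed the difference at the smallest sizes. Of 26 bins, 3 (11.5%) passed the permutation test after adjustment. TRB CDR3s seen in 1 drawn read numbered 418 ± 155 with anti-PD-1, against 185 ± 164 with vehicle (ratio 2.26, adjusted p = 0.0121), and those in 2 to 3 reads 212 ± 51.1 and 121 ± 91.2 (ratio 1.75, adjusted p = 0.0267). TRA CDR3s of 1 read, which are the rare class, were the third. The group ratio of TRB bins was 1.15 at 4 to 7 reads, 0.978 at 8 to 15, 0.852 at 16 to 31 and 1.41 at 256 to 511 reads, and no TRB bin from 4 reads upward passed. CDR3s of 1 read made up 52.2 ± 9.603% of the distinct TRB CDR3s with anti-PD-1, against 35.0 ± 12.5% with vehicle (adjusted p = 0.00532), and 59.0 ± 7.74% and 43.8 ± 13.2% of the distinct TRA CDR3s (adjusted p = 0.00547). Before depth was equalized the order was the opposite, with differences of -12.1 percentage points for TRB and -6.70 for TRA, and the anti-PD-1 libraries were the deeper ones.

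**Figure D3:**
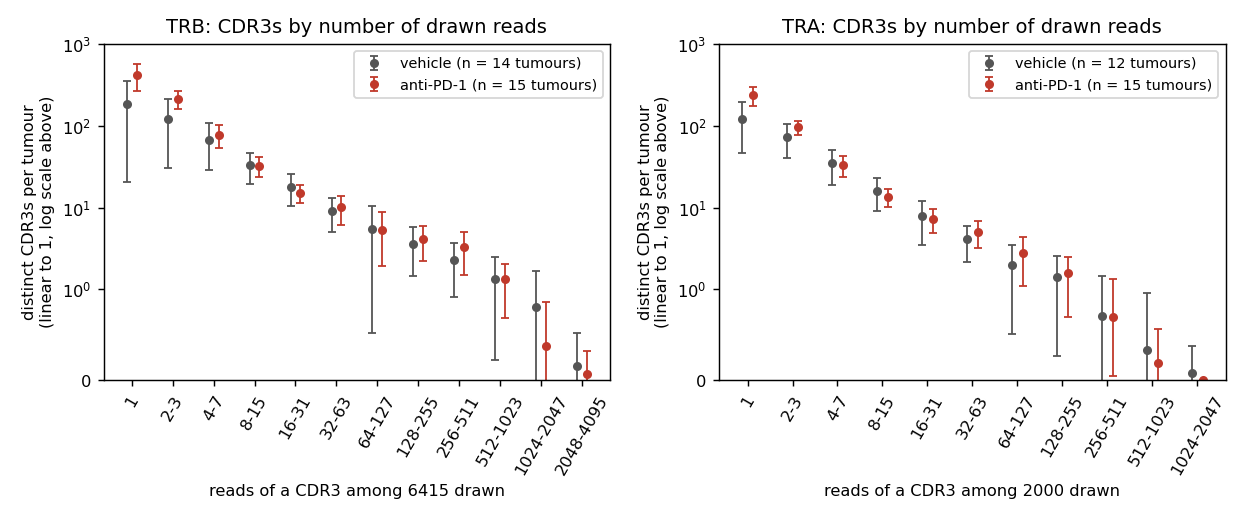
Mean number of distinct CDR3s per tumour, with SD, in doubling bins of drawn reads (6415 TRB or 2000 TRA reads per tumour; the y axis is linear up to 1 and logarithmic above, and bins without any CDR3 are not drawn). For TRB the group means are 418 against 185 at 1 read and 212 against 121 at 2 to 3 reads, and the tumours of the groups overlap. No bin from 4 reads upward passed the test, nor did the TRA bin of 2 to 3 reads.

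Within index set 2, which holds 10 anti-PD-1 and 2 vehicle tumours, the smallest p an exact permutation test can give is 0.0152. Vehicle tumours 13 and 14 held 175 and 497 rare TRB CDR3s, and the anti-PD-1 tumours of the set 397 to 988 (median 821). One anti-PD-1 tumour thus fell below vehicle tumour 14, and the difference of means was 422 (exact permutation p = 0.0303, adjusted p = 0.115). Rare TRA CDR3s were 71.7 and 169 in the vehicle tumours and 192 to 335 in the anti-PD-1 tumours, which did not overlap (exact permutation p = 0.0152, adjusted p = 0.0823). Expanded TRB CDR3s numbered 14.9 ± 3.90 (SD, n = 10) with anti-PD-1 and were 16.2 and 7.01 in the vehicle tumours (exact permutation p = 0.364). None of the 38 measures passed the adjusted threshold within this set. At the smallest possible p, a measure could pass only if many others reached it too. The lack of a call here therefore does not decide whether the groups differ.

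Read depth before drawing moved with treatment as well. Among tumours with at least 62308 TRB reads, the lowest total of the anti-PD-1 group, 5 vehicle tumours remained, with 394, 230, 765, 175 and 497 rare TRB CDR3s (tumours 3, 4, 7, 13 and 14). Against these, the 15 anti-PD-1 tumours held 285 more (95% interval -1.51 to 571, exact permutation p = 0.0163, adjusted p = 0.0921), and 93.7 more rare TRA CDR3s (exact permutation p = 0.00845, adjusted p = 0.074). The other 9 vehicle tumours lay below this depth. Tumours 1, 2, 5, 6 and 12, with 7648 to 60491 TRB reads, held 51.6 to 125 rare TRB CDR3s, and tumours 8 to 11, with 6415 to 17556 TRB reads, held 438 to 852. The part of read depth in the difference was not tested further.

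The composition of the CDR3s was compared next, separately for expanded and rare CDR3s, counting each CDR3 once per tumour. No J gene, residue or length that could be tested passed between the treatments. In edgeR's quasi-likelihood test, 0 of 165 features in 12 tables (0%) passed an adjusted p of 0.05, and 2 (1.21%) had an unadjusted p under 0.05. DESeq2 also called 0 of the 165, with 1 at an unadjusted p under 0.05. Shares of J genes, residues and lengths each sum to 100% in a tumour, so a higher share of one lowers the others.

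Trbj2-7, the J gene used most by both classes, made up 19.96 ± 9.92% (SD, n = 15) of expanded TRB CDR3s with anti-PD-1, against 17.0 ± 10.4% (SD, n = 14) with vehicle. In rare CDR3s it made up 20.5 ± 1.18% and 19.7 ± 2.79%, a log2 difference of -0.01 (SE 0.04). Trbj2-3 (13.5 and 10.9%) and Trbj1-1 (11.8 and 10.8%) followed in expanded CDR3s, and Trbj2-5 (12.6 and 12.9%) and Trbj2-1 (12.9 and 12.2%) in rare ones. None of the 6 Trbj1 and 6 Trbj2 genes passed in the rare class, nor any of the 4 and 5 tested in the expanded class. The precision differed between classes, because the 6 rare TRB J genes with over 1000 CDR3s had SEs of 0.04 to 0.08 on the log2 scale, while Trbj2-7 in expanded CDR3s had 0.34.

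In TRA only 3 J genes, Traj7, Traj30 and Traj33, reached the summed number of 20 needed for a test in expanded CDR3s. None of the 3 passed, and the other Traj genes were not tested between treatments in that class. Traj7 made up 27.0 ± 10.5% (SD, n = 15) of expanded TRA CDR3s with anti-PD-1, against 28.1 ± 16.1% (SD, n = 12) with vehicle. Traj30 made up 15.2 ± 6.70% and 13.5 ± 8.82%, and Traj33 5.33 ± 5.25% and 7.62 ± 8.54%. The adjusted p of all 3 was 0.946 in edgeR. The most used J genes of rare TRA CDR3s, Traj22 (5.38 and 5.73%), Traj23 (5.40 and 4.73%) and Traj31 (5.11 and 4.60%), each had an adjusted p of 0.932 in edgeR.

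CDR3 length, hydropathy and charge were compared as means per tumour. Hydropathy is the Kyte-Doolittle score per residue, where lower is more hydrophilic, and charge counts Lys and Arg as plus and Asp and Glu as minus, both without the first 3 and last 3 residues. Rare TRB CDR3s were 13.95 residues long in both groups (difference -0.00422, interval -0.0528 to 0.0444) and had hydropathies of -1.25 and -1.25. Expanded TRB CDR3s were 13.9 ± 0.432 residues long with anti-PD-1 and 13.9 ± 0.297 with vehicle (interval of the difference -0.349 to 0.214, permutation adjusted p = 0.886). None of the 9 measures of length, hydropathy or charge passed in either chain.

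Of the 165 features, Asp of rare TRA CDR3s had the smallest adjusted p. It made up 3.33 ± 0.194% (SD, n = 15) of their residues with anti-PD-1, against 4.22 ± 1.02% (SD, n = 12) with vehicle, with tumours from 2.96 to 3.60% and from 3.34 to 7.11% (unadjusted p = 0.00522, edgeR adjusted p = 0.0993). Glu, the other acidic residue, made up 2.78 and 2.68% (edgeR adjusted p = 0.972). The net charge of rare TRA CDR3s was 0.594 ± 0.0252 and 0.543 ± 0.0897 per CDR3 (permutation p = 0.0365, adjusted p = 0.139). The charge difference passed without vehicle tumour 12 (0.0639, adjusted p = 0.0132). In TRB, Ile of expanded CDR3s was the one with an unadjusted p under 0.05 (0.931 and 1.45%, edgeR adjusted p = 0.564).

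Expanded and rare CDR3s of the same tumour were then compared, with the tumour as a block, and the difference between treatments was tested as an interaction of class and treatment. In both groups Traj7, Traj30, Asp and Tyr were higher and Gly was lower among expanded than among rare TRA CDR3s, while fewer TRB features passed. The interaction passed for 0 of 112 features (0%) in edgeR, with 3 at an unadjusted p under 0.05, so none of these differences was shown to differ between the treatments. The smallest adjusted p of an interaction was 0.128, for Trbj2-2.

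Among 43 TRA J genes tested over both groups together, 3 were higher in expanded CDR3s (6.98%) and 8 were lower (18.6%). Within vehicle tumours alone and within anti-PD-1 tumours alone 2 passed each, Traj7 and Traj30. Traj33 and the 8 lower genes passed in neither group alone. Traj7 made up 27.5% of expanded and 3.87% of rare CDR3s on average over 27 tumours, a log2 difference of 2.90 (SE 0.18, edgeR adjusted p = 2.23e-38), and its share was higher among expanded CDR3s in 26 of 27 tumours. Traj30 made up 14.5 and 3.97% (log2 difference 1.89, SE 0.22, edgeR adjusted p = 2.12e-11, 23 of 27 tumours). Traj33 made up 6.35 and 3.22% (log2 difference 0.94, SE 0.29, edgeR adjusted p = 0.0332, 16 of 27 tumours). These differences are relative to the total of each class. TMM normalization shifted the median TRA J gene by -1.305, and with it 1 J gene was higher and 41 lower: Traj7 had a log2 difference of 1.11 (edgeR adjusted p = 6.91e-08), Traj30 of 0.12 (edgeR adjusted p = 0.6002) and Traj33 of -0.83. Relative to the other J genes the order of the 3 was the same, but the direction of Traj33 and the call of Traj30 depend on this scaling. In index set 2 alone, Traj30 had a log2 difference of 1.68 (edgeR adjusted p = 0.124).

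The J genes that were lower in expanded TRA CDR3s were Traj58, Traj57, Traj49, Traj44, Traj34, Traj31, Traj21 and Traj12. Traj31 made up 1.79 against 4.88%, Traj34 0.954 against 3.16%, Traj21 1.54 against 3.98% and Traj12 0.908 against 3.30%. Traj58, Traj57 and Traj44 hardly occurred among expanded CDR3s, with 0.40, 1.31 and 0.99 CDR3s summed over the 27 tumours. With each tumour left out in turn, the calls of Traj33 and Traj21 ended in 7 of 27 fits each, those of Traj12 and Traj44 in 4 each and that of Traj49 in 1. By position, 4 of 14 upstream Traj genes (Traj61 to Traj40) were lower and 0 higher, with a median log2 difference of -1.68 against -1.04 over all 43. The upstream genes made up 12.2% of expanded and 24.3% of rare CDR3s in vehicle tumours, and 12.6 and 24.2% in anti-PD-1 tumours. Traj7 and Traj30, which are not upstream genes, made up 27.5 and 14.5% of expanded but 3.87 and 3.97% of rare CDR3s over both groups. Their higher share among expanded CDR3s lowers the share of the other J genes, upstream ones included. How much of the upstream difference remains without Traj7 and Traj30 was not tested. Of the central genes (Traj39 to Traj23) 2 were higher and 2 lower, and of the downstream genes (Traj22 to Traj1) 1 was higher and 2 lower.

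**Figure D4:**
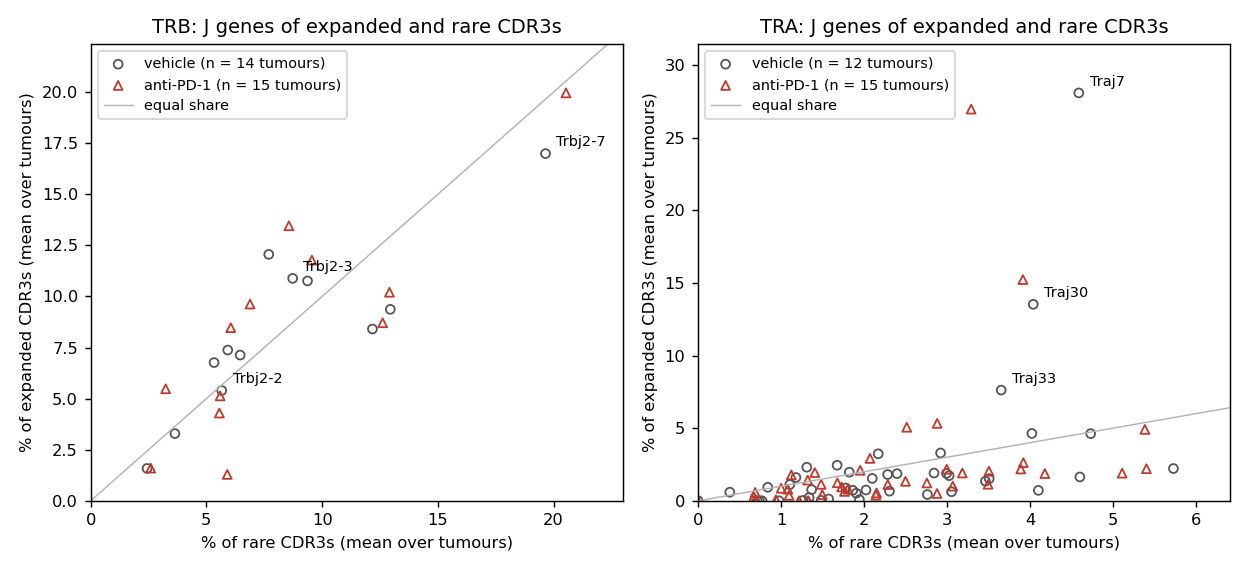
Share of each J gene among expanded (y axis) and rare (x axis) CDR3s, as the mean over tumours of each treatment, for TRB (left) and TRA (right). Traj7 lies at 28.1% of expanded and 4.59% of rare TRA CDR3s in vehicle tumours and at 27.0 and 3.29% in anti-PD-1 tumours, far above the line of equal shares, while TRB J genes lie closer to it.

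The Traj7 and Traj30 segments are shown because these were the J genes most used by expanded α chains. They lie in the α locus on chromosome 14 of GRCm38, Traj7 at chr14:54211470-54211528 and Traj30 at chr14:54189866-54189924, both on the + strand, and capitals mark the codons of the last 9 residues of the CDR3.
Traj7: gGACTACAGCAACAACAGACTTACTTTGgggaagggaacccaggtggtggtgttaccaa
Traj30: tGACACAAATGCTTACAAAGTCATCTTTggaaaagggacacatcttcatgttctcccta

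These capitals code for DYSNNRLTL and DTNAYKVIF, each with Asp first. Expanded Traj7 CDR3s kept the whole germline ending in 53 of 54 distinct sequences (98.1%), against 254 of 413 rare ones (61.5%). Expanded Traj30 CDR3s kept theirs in 17 of 20 (85%), against 235 of 535 rare ones (43.9%). These counts pool all reads of tumours of unequal depth. CDR3s that lay 1 substitution from another with at least 100 times their reads were kept. Whether expanded and rare CDR3s of other Traj genes differ in the same way was not tested. The most common length was 14 residues in all 4 sets. Traj7 accounted for 104 of 394 occurrences of an expanded TRA CDR3 in a tumour (26.4%) and was found expanded in 28 of 29 tumours, 13 vehicle and 15 anti-PD-1, in all reads of each tumour. Its share of TRA reads ran from 5.14 to 55.2% (median 26.7%) in anti-PD-1 tumours and from 2.24 to 55.0% (median 16.5%) in vehicle tumours, and the groups overlapped over almost the whole range. Traj30 took 2.06 to 20.2% (median 7.68%) and 1.01 to 23.4% (median 5.51%). In index set 2, Traj7 took 5.14 to 45.03% in 10 anti-PD-1 tumours and 11.0 and 55.0% in the 2 vehicle tumours, and its log2 difference between expanded and rare CDR3s was 3.22 (edgeR adjusted p = 1.49e-13).

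Individual α CDR3s were found expanded in several tumours of both treatments. Without V gene or nucleotides, 1 amino acid CDR3 can stand for more than 1 clone. In all reads, 40 of 285 distinct expanded TRA CDR3s (14.0%) were expanded in at least 2 tumours, against 23 of 371 TRB CDR3s (6.20%). Reads possibly carried over between libraries were kept for these shares. The most recurrent α CDR3s are shown, and the last 9 residues of each are the germline ending of its J gene.
CAAKDYSNNRLTL joined to Traj7 was found in 26 of 29 tumours and expanded in 16, of which 7 were vehicle and 9 anti-PD-1.
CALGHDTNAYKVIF joined to Traj30 was found in 26 and expanded in 14, of which 7 were vehicle and 7 anti-PD-1.
CAASDYSNNRLTL joined to Traj7 was found in 22 and expanded in 11, of which 2 were vehicle and 9 anti-PD-1.
Another α CDR3, of 14 residues ending in DTNAYKVIF and joined to Traj30, was found in 27 and expanded in 10, of which 2 were vehicle and 8 anti-PD-1.

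CAAKDYSNNRLTL reached 27.1% of TRA reads in a vehicle tumour (group median 1.32%) and 15.0% in an anti-PD-1 tumour (median 1.38%). CAASDYSNNRLTL reached 35.0% with anti-PD-1 (median 2.91%) and 19.3% with vehicle (median 0.0578%). Treatment differences of single CDR3s were not tested. With a CDR3 dropped from a tumour where it held under 1% of its highest count in the 44 tumours, which would take out reads carried over between libraries, CAAKDYSNNRLTL stayed in 7 tumours, all expanded, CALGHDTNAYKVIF in 23 (14 expanded), CAASDYSNNRLTL in 10 (all expanded) and the other Traj30 CDR3 in 8 (7 expanded). The log2 differences of Traj7 (3.17) and Traj30 (1.92) were as large in that setting. Recurrent TRB CDR3s were fewer: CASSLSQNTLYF (Trbj2-4) was found in 21 tumours and expanded in 4, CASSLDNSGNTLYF (Trbj1-3) in 20 and 3, and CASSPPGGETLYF (Trbj2-3) in 17 and 3. In the same setting they stayed in 7, 8 and 3 tumours and were expanded in 3 each.

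Residues were compared over both groups together and within each. Over both groups, of 20 residues, 5 were higher (25%) and 5 lower (25%) in expanded than in rare CDR3s. Asp, an acidic residue, made up 9.09 against 3.72% (log2 difference 1.32, SE 0.09, edgeR adjusted p = 5.58e-16) and Tyr, an aromatic one, 9.61 against 6.43% (log2 difference 0.59, SE 0.06), each higher in 27 of 27 tumours. His (0.943 against 0.443%), Arg (7.65 against 5.87%) and Asn (16.4 against 14.4%) were higher as well, of which Arg had a log2 difference of -0.76 when 4 instead of 3 end residues were left out, a setting that removes the Arg of the Traj7 ending. Gly, the smallest residue, made up 12.4 against 17.9% (log2 difference -0.53, SE 0.07, lower in 26 of 27 tumours), and Val, Trp, Gln and Thr were lower. Within vehicle tumours alone 7 residues passed (Asp, Gly, His, Arg, Val, Trp and Tyr), and within anti-PD-1 tumours alone 3 (Asp, Gly and Tyr). Trp made up 0.297 against 1.09% with vehicle (log2 difference -2.07, edgeR adjusted p = 0.00905) and 0.939 against 1.01% with anti-PD-1 (log2 difference -0.21, edgeR adjusted p = 0.666), and its interaction with treatment had an edgeR adjusted p of 0.502. The Thr call ended in 16 of 27 fits that each left out a single tumour (highest edgeR adjusted p = 0.0996), and that of Asn in 1. Of the residue lists, the basic list had 2 of 3 higher, the acidic 1 of 2 higher, the small 1 of 3 lower and the aliphatic 1 of 4 lower, and the aromatic and amide lists had 1 in each direction.

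Expanded TRA CDR3s were more hydrophilic than the rare ones of the same tumour. Their hydropathy was -1.92 against -1.52 in vehicle tumours, lower in 12 of 12 (exact sign-flip permutation adjusted p = 0.00195), and -1.83 against -1.48 in anti-PD-1 tumours, lower in 13 of 15 (adjusted p = 0.00183 by exact permutation). Net charge was lower by 0.339 ± 0.256 (SD, n = 12, 10 tumours lower, exact permutation adjusted p = 0.00586) and by 0.369 ± 0.269 (SD, n = 15, 14 tumours lower, exact permutation adjusted p = 0.00183). Expanded CDR3s were longer by 0.265 ± 0.265 residues with anti-PD-1 (SD, n = 15, exact permutation adjusted p = 0.00703) and by 0.109 ± 0.312 with vehicle (SD, n = 12, exact permutation adjusted p = 0.427), and the difference between treatments did not pass (interval -0.0785 to 0.392, permutation adjusted p = 0.384). Of 8 lengths tested 1 was lower (12.5%) and 0 higher (0%): CDR3s of 12 residues made up 7.42 against 13.4%.

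The TRA comparison was repeated with all Traj7 and Traj30 CDR3s left out before the draw, a setting chosen after the data were seen. The J genes, residues and lengths that passed then were Traj33 (log2 1.64, edgeR adjusted p = 1.60e-05), Asp (0.76, edgeR adjusted p = 1.43e-05) and a length of 16 residues (1.03, edgeR adjusted p = 0.0051). In anti-PD-1 tumours the differences in length (0.337 residues, exact permutation adjusted p = 0.00513) and charge (-0.264, exact permutation adjusted p = 0.0289) also passed. Hydropathy differences, at -0.126 in vehicle and -0.0482 in anti-PD-1 tumours, and the charge difference in vehicle tumours, at -0.166, did not. Several lost calls came with log2 differences near 0 or of the opposite sign, as for Gly (-0.03 from -0.53), Traj31 (-0.09 from -1.37), Asn (-0.17 from 0.18) and Gln (0.14 from -0.46). Others were about as large as before: Traj44 was at -2.42 from -2.50, Traj34 at -1.597 from -1.93, Traj21 at -1.585 from -1.37, Traj12 at -1.50 from -1.62 and Thr at -0.30 from -0.31. Tyr (0.24 from 0.59), Traj58 (-2.13 from -3.38), Traj57 (-1.06 from -2.92) and Traj49 (-0.79 from -1.81) lay between. A call lost in this setting is therefore not by itself a lost difference.

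**Figure D5:**
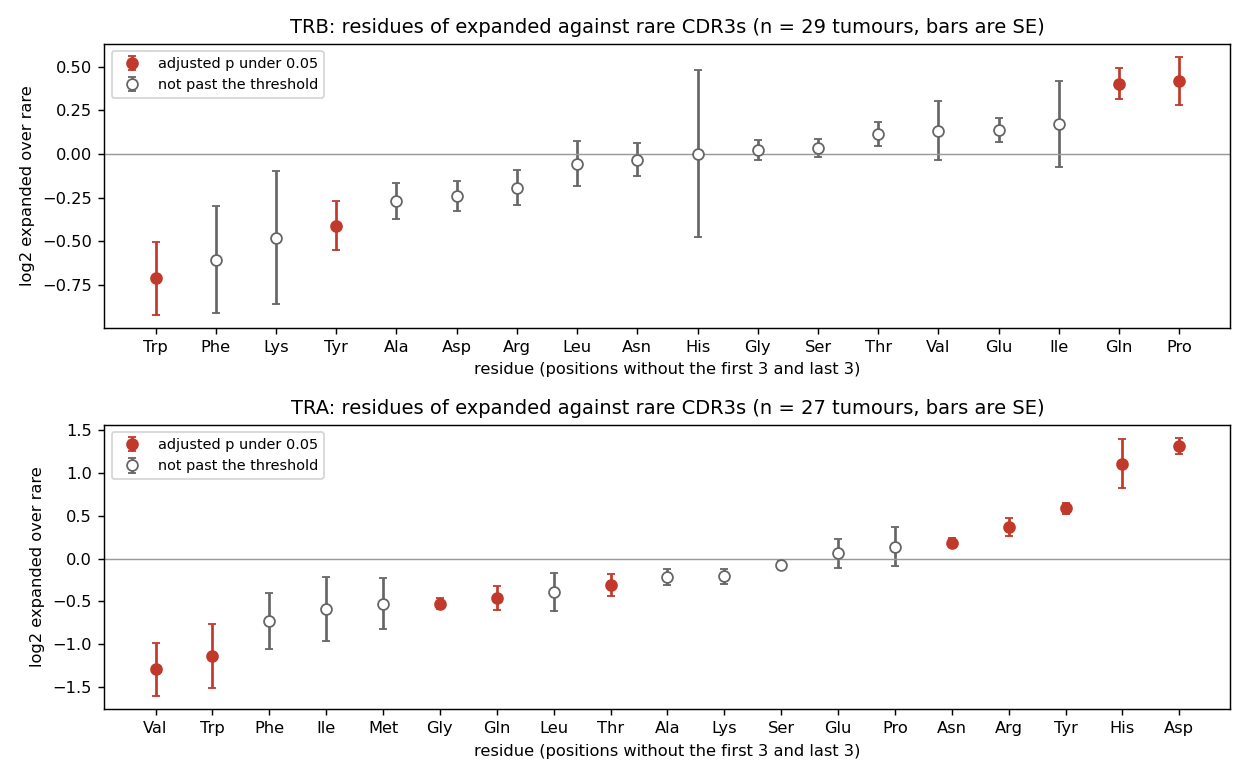
Log2 difference in residue share between expanded and rare CDR3s within tumours, with SE, for TRB (29 tumours) and TRA (27 tumours), without the first 3 and last 3 residues of each CDR3. Filled points passed an adjusted p of 0.05, and residues found under 5 times among expanded CDR3s, such as Met of TRB, are not drawn. Asp lies at 1.32 and Gly at -0.53 in TRA, while Gln and Pro lie at 0.40 and 0.42 and Trp at -0.71 in TRB.

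In TRB, 0 of 12 J genes were higher (0%) and 1 was lower (8.33%) in expanded than in rare CDR3s. Trbj2-2 made up 3.27 against 5.79% (log2 difference -1.31, SE 0.45, edgeR adjusted p = 0.0458). Within vehicle tumours it made up 5.39 against 5.66% (log2 difference -0.08, edgeR adjusted p = 0.937). Within anti-PD-1 tumours it made up 1.29 against 5.90% (log2 difference -2.54, edgeR adjusted p = 0.00514). Its interaction with treatment did not pass (edgeR adjusted p = 0.128). Trbj2-3 was higher within anti-PD-1 tumours alone (log2 difference 0.77, edgeR adjusted p = 0.0471) and did not pass over both groups. The Trbj2-2 call over both groups ended in 20 of 29 fits that each left out a single tumour (highest edgeR adjusted p = 0.0875). Of 20 residues 2 were higher (10%) and 3 lower (15%). Gln made up 7.37 against 5.64% (log2 difference 0.40, SE 0.09, edgeR adjusted p = 0.0016) and Pro, which bends the backbone, 4.33 against 3.09% (0.42, SE 0.14). Trp (1.32 against 2.11%) and Tyr (2.74 against 3.59%), both aromatic, were lower, as was Met, with 1.22 residues summed over all expanded CDR3s. The Tyr call ended in 6 of 29 such fits, and those of Met and Pro in 1 each. Of 9 TRB lengths 0 were higher or lower (0%), with 0 of 3 mean measures past the threshold in either treatment. In vehicle tumours, expanded and rare TRB CDR3s were 13.9 and 13.95 residues long and had hydropathies of -1.32 and -1.25 (exact permutation adjusted p = 0.823 and 0.427).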

How the data were processed

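Receptor transcripts of both chains were amplified by the authors from tumour RNA with a SMARTer kit and read on a MiSeq, MiXCR turned the reads into clonotypes at the amino acid level, and the submitters' processing notes name mm10. The table was deposited as read counts per CDR3 and tumour, not normalized for depth, with the library concentration in nM and a clone fraction that was not used.

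A CDR3 took the chain and J gene whose germline ending it shared over the most residues (4 or more), using the J endings of RefSeq's GRCm38 annotation. Over the 44 tumours 63.5% of entries were TRB, 34.5% TRA and 2.04% unassigned, and the unassigned were left out. Reads were drawn without replacement (6415 TRB, 2000 TRA, 100 draws). Group means were compared with two-sided permutation tests (100000 resamples, smallest p 1e-05, exact where a group held under 10 tumours), with Welch 95% intervals and Benjamini-Hochberg adjustment over 38 measures or 26 bins. Expanded minus rare differences had exact sign-flip permutation tests (12 tests). J genes, residues and lengths with a summed number of at least 20 were tested as rounded numbers of CDR3s with edgeR 4.0.16 (quasi-likelihood) and, as an alternative, DESeq2 1.42.0 in R 4.3.3, adjusted within each table. DESeq2 used gene-wise dispersions where its trend could not be fitted. The SE printed with an edgeR log2 difference is its absolute size divided by the square root of the F statistic. It is nominal, and some edgeR p-values are larger than this SE alone would give. Other steps used SciPy 1.17.1, NumPy 2.4.6 and pandas 2.3.3 under Python 3.11.15, with matplotlib 3.10.9 for plots. The scripts were tested on simulated data.

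Intervals and tests cover the spread between tumours and no counting error of molecules, as reads carry no molecular identifiers. Genes and CDR3s were named where they passed an adjusted p of 0.05 (at most the 10 largest changes per table), as the 3 most used J genes per chain and class, and as the largest TRB CDR3 of 3 tumours per group and the 3 CDR3s expanded or found in the most tumours, under 15 residues. The groups, lists and tests were chosen with earlier results of these data known. Alternatives covered depth, filters on CDR3s, class limits, J match, residue ends, normalization, tests, index set, replicate number and each tumour left out. The restriction to the depth range of anti-PD-1 tumours and the removal of Traj7 and Traj30 were chosen after seeing the data.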

Additional observations from a re-analysis of the deposited data

Results flagged for a closer look

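Among 74 sets of 4 to 10 tumours checked for a tumour far from the others, 6 held one, and chance flags about 1 in 20 such sets. Several measures of a tumour share the same reads, so the 6 are not independent. Within index set 2, anti-PD-1 tumour 6 stood apart in 4 measures. Its expanded TRB CDR3s took 79.9% of TRB reads, against 53.8 to 66.2% in the other 9 tumours. It held 34.6 intermediate TRB CDR3s, against 61.4 to 90.5. Its largest CDR3 took 57.7% of TRB reads, against 8.23 to 17.4%, and its largest TRA CDR3 took 27.4% of TRA reads, against 8.64 to 15.8%. Among the 5 vehicle tumours within the depth range of the anti-PD-1 group, vehicle tumour 7 held 456 distinct TRA CDR3s, against 244 to 283, and 15.7 CDR3s held 50% of its TRA reads, against 3 to 6.56.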

How the results depend on the processing

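Of 1601 values recomputed with all tumours of a setting and compared with the reported ones, 1436 kept direction and side of the threshold or stayed within the range set for counts.
Within index set 2 the differences in distinct (TRB 415, TRA 169) and rare CDR3s (422, 142), the rare TRB read share (9.42) and the share of CDR3s of 1 read (19.6, 15.9) no longer passed, nor did any bin (0 and 0). Within the depth range the same held at 284 and 93.5, 285 and 93.7, 5.04, and 17.4 and 13.0, with 0 bins, while the charge of rare TRA CDR3s passed (0.0766). Both settings leave few vehicle tumours, and in set 2 the smallest possible p hardly allows a pass. In expanded against rare CDR3s, set 2 gave 3 TRB J genes, 0 TRB residues, 1 TRA J gene, 3 TRA residues and 0 TRA lengths, and the depth range 2 TRB J genes, 2 TRB residues, 1 TRB length, 2 TRA J genes and 0 TRA lengths.
With both chains drawn to 1 total, distinct TRA CDR3s (38.2) and TRA bins (0) did not pass. Rare TRA CDR3s (-1.54) could not occur in set 2 there. Expanded minus rare values with anti-PD-1 were thus left to set 3, too few tumours for the exact test to pass. They were 0.306 for TRA length, -0.435 for hydropathy and -0.312 for charge. Charge with vehicle (-0.228), also without set 2, did not pass. At 20000 reads the expanded TRB share (-10.5) and the number holding 50% of TRB reads (3.83) passed, the latter also without CDR3s of 1 read (3.27) and with a J match of 5 (3.08). TRA at 20000 reads left 1 vehicle tumour and no group value. Without equal depth, the share of CDR3s of 1 read was -12.1 and -6.70, 13 TRB and 12 TRA bins and 1 rare TRA residue passed. TRA length with anti-PD-1 did not pass at 20000 reads (0.292), with expanded at 2% (0.189) or weighted by reads (0.192). Length differences passed at 0.5% (0.237, expanded) and on 1 draw (0.321, expanded minus rare), and charge of rare TRA CDR3s with ends of 4 (0.0544), where Arg was -0.76. At 0.5%, 1 expanded TRA J gene passed between treatments and 2 TRA lengths between classes. The TRB J call (Trbj2-2) became 0 without equal depth, without CDR3s of 1 read, with carry-over removed (also 0 TRA lengths), at 0.5 and 2%, with rare as 1 read, on 1 draw and with tied J genes shared. TMM gave 6 TRB J genes, 3 TRB lengths, 42 TRA J genes and -0.83 for Traj33. Without Traj7 and Traj30, 1 TRA J gene and 1 residue passed, hydropathy was -0.126 and -0.0482, charge with vehicle -0.166, Asn -0.17 and Gln 0.14. Except where the construction shows it, the cause was not tested.
Leaving out each tumour gave 6 to 13 TRA J genes (fewest without anti-PD-1 tumour 5), 0 to 2 TRB J genes, 0 to 1 TRB J interactions (without anti-PD-1 tumour 9 or 12), 0 to 1 rare TRA residues between treatments (without vehicle tumour 14), 1 to 2 TRB bins (without vehicle tumour 5 or 12 or anti-PD-1 tumour 7) and 1 to 2 TRA bins (without vehicle tumour 7). The charge of rare TRA CDR3s ran from 0.0324 to 0.0639, the number holding 50% of TRB reads from 2.54 to 3.52 (passing without vehicle tumour 13 or anti-PD-1 tumour 6 or 13) and the largest TRB share from -8.59 to -4.54.
Whether replicate numbers pair the tumours could not be decided: of 14 pairs 7 correlated over 0.1 (range -0.729 to 0.769). These correlations ran over TRB measures that largely depend on each other. With the replicate block, distinct TRB CDR3s differed by 343 and rare ones by 345 (TRA 138 and 119), and it changed no call.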
